A study of Mus musculus with 18 samples.

Results

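The transcripts of 10 genes that encode the collagens, laminin chains and linker proteins of basement membranes were followed in the left ventricle of mice. The genes are Col4a1, Col4a2, Col15a1, Col18a1, Lama2, Lama4, Lamb1, Lamc1, Nid1 and Hspg2, chosen by name from the 48709 genes of the deposited table. All 10 were found, and all 10 passed the filter on low counts. The mice were male wild type C57BL/6J animals, 12 weeks old, in 3 groups of 6 libraries each. In the first group osmotic pumps delivered isoproterenol, a catecholamine that stimulates β-adrenergic receptors, at 30 mg/kg/day, and minocycline, an antibiotic of the tetracycline class that also dampens inflammation, was injected into the peritoneum at 50 mg/kg every day. The second group received the isoproterenol infusion alone, and the control group received saline. Tissue was taken after 21 days, and animals given minocycline alone are not among the samples analysed here. The protocol speaks of pooled RNA, so it is uncertain whether each library comes from 1 animal, and p-values measure the spread between libraries.

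A basement membrane is a thin sheet of extracellular matrix that surrounds each cardiomyocyte and underlies the endothelium of every vessel. Laminins, trimers of an α, a β and a γ chain, form a network bound to the cell surface through integrins and dystroglycan, and collagen IV forms a covalently crosslinked network beside it. Nidogens and the heparan sulfate proteoglycan perlecan, encoded by Hspg2, link these networks, and collagens XV and XVIII sit at the side facing the interstitial matrix. In muscle, laminin α2 is the chain typical of the muscle fibre's own basement membrane, and laminin α4 is, beside laminin α5, a chain of vessel walls. Loss of laminin α2 causes a congenital muscular dystrophy in mice and humans.

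The libraries held 14203041 to 22688664 counts, of which 40.1 to 47.7% came from genes of the mitochondrial genome. The 10 genes together took 0.120 to 0.200% of the counts with isoproterenol and minocycline, 0.137 to 0.175% with isoproterenol and 0.100 to 0.128% in control. Markers of atrial tissue varied between libraries of each group, and 4 libraries exceeded 80 CPM (counts made comparable by library size after scaling with the trimmed mean of M-values, TMM) of Myl7, the atrial myosin light chain: Isoproterenol and minocycline 2 at 206 CPM, Isoproterenol 5 at 96.3 CPM, Control 5 at 134 CPM and Control 6 at 85.6 CPM. Calls on the 10 genes that are lost without these libraries are named below.

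Col4a1 and Col4a2, which encode the partner chains of the most widespread collagen IV trimer, lie head to head on mouse chromosome 8. In the deposited table Col4a1 (ENSMUSG00000031502) spans 11198423 to 11312826 on the minus strand and Col4a2 (ENSMUSG00000031503) spans 11312805 to 11449287 on the plus strand, so that their 5′ ends share 22 bases. The start and end positions of both are those of GENCODE M21 on GRCm38. Because the results on collagen IV turn on how closely this pair moved, their start regions are printed here from the RefSeq promoter table (GRCm38.p6), each read 5′ to 3′ on its own gene's strand, from 250 bases before the start site through the shared 22 bases. Capitals mark those shared bases, chr8:11312805-11312826, which are reverse complements of each other in the 2 lines.
Col4a1, chr8:11312805-11313076, minus strand: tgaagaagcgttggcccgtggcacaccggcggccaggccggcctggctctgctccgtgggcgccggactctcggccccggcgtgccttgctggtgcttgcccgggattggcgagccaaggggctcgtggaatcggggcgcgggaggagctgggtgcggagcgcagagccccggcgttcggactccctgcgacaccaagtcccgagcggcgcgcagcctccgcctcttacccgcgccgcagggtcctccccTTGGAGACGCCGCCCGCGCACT
Col4a2, chr8:11312555-11312826, plus strand: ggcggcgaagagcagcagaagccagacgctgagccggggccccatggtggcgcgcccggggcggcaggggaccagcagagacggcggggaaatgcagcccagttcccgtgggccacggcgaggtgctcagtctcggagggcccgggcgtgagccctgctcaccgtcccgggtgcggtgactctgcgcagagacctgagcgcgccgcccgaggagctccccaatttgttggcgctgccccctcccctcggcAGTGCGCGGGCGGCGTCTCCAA
Windows from 250 bases before to 50 bases after the start site were searched on both strands for 3 short motifs. A GC box (GGGCGG or CCGCCC) stood within the shared stretch, the same bases read at +9 for Col4a1 and +7 for Col4a2 with the start site as 0, and Col4a2 held further ones at -192 and -48. A CCAAT box (CCAAT or ATTGG) began at -145 in Col4a1 and at -32 in Col4a2, and a TATA box (TATAAA or TTTATA) was in neither window. No 2 of these motifs overlapped in letters. Of 32851 RefSeq windows 35.7% held a GC box, 37.4% a CCAAT box and 13.6% a TATA box. The Col4a1 and Col4a2 windows had a GC content of 74.0% and 73.7%, against a median of 52.7% over all windows. In all, 8 of the 10 genes matched this table with 9 windows, of which 7 held a GC box, 5 a CCAAT box and 0 a TATA box. Lama4 and Lamc1 were not matched.

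Per transcript length, in the deposited TPM values (abundance scaled for transcript length and library total), collagen IV stood at the top of the 10 genes. Col4a1 averaged 55.4 TPM over the 18 libraries and Col4a2 50.3 TPM. Hspg2 followed at 37.4 TPM, Nid1 (nidogen-1) at 30.5 TPM and Lamc1 (laminin γ1) at 30.4 TPM. Col15a1 averaged 15.8 TPM, Lamb1 (laminin β1) 11.8 TPM, Lama4 8.40 TPM, Lama2 7.08 TPM and Col18a1 2.41 TPM. Neighbours in this order lay within each other's spread in several places. In control, Col4a1 was at 43.3 ± 4.47 TPM and Col4a2 at 38.5 ± 4.03 TPM, Nid1 at 25.7 ± 3.70 TPM and Lamc1 at 24.8 ± 3.33 TPM, and Lama2 at 7.11 ± 0.592 TPM and Lama4 at 6.86 ± 1.13 TPM (SD, n = 6). Lama2 and Lama4 changed places between groups: Lama4 was the higher of the pair with isoproterenol and minocycline (9.13 against 6.70 TPM for Lama2) and with isoproterenol (9.21 against 7.44 TPM), and the lower in control, where the pair lay within its spread. TPM values are relative to each library's own total, so changes between groups were taken from the counts alone.

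**Figure D1:**
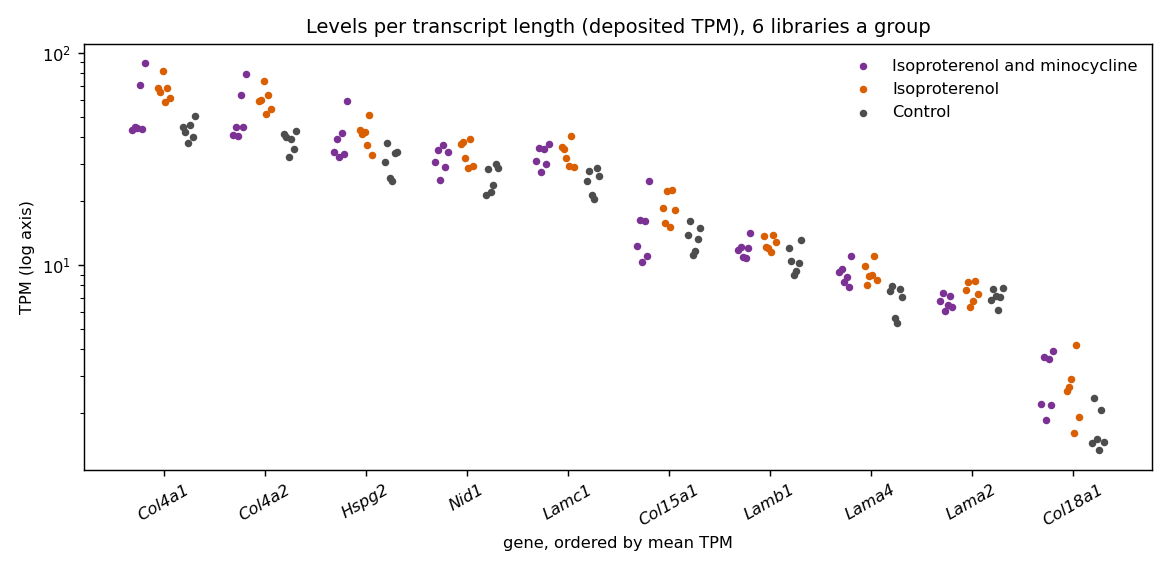
Levels of the 10 basement membrane genes in deposited TPM on a log axis, 1 point a library, with isoproterenol and minocycline, isoproterenol and control side by side for each gene. Genes are ordered by their mean over 18 libraries, from Col4a1 at 55.4 TPM to Col18a1 at 2.41 TPM.

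With isoproterenol against control, 2 of the 10 genes rose and 0 fell past the threshold, an adjusted p under 0.05 in the quasi-likelihood test of edgeR, with Benjamini-Hochberg adjustment over all 13281 genes tested. These were Col4a2 and Lamc1. Over all genes, 6.94% were called higher and 5.62% lower in this comparison, so the share among the 10 lies above that of all genes, on a count of 2. Between the groups, 9 of the 10 had a positive log2 fold change, against 50.2% of all genes, with a median of 0.25 against 0.0011 over all genes tested. The 10 genes partly moved together within groups (median r of 0.49 over their 45 pairs), so these are not 10 separate signs. At an unadjusted p under 0.05 stood 6 of the 10, against 27.6% of all genes. The comparison addresses how the ventricle differed after 21 days of β-adrenergic stimulation. In bulk tissue, more cells of a type and more RNA per cell cannot be told apart.

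Both collagen IV genes were higher in every isoproterenol library than in every control library. Col4a1 lay at 259.6, 269 and 384 CPM (lowest, median and highest of 6 libraries) with isoproterenol and at 186, 208 and 228 CPM in control. Col4a2 lay at 219, 229 and 327 CPM with isoproterenol and at 153, 182 and 194 CPM in control. Isoproterenol 3 was the highest library for both, and the other 5 isoproterenol libraries kept within a narrow band that did not touch the controls. Of all genes, 3.66% were higher without overlap of the groups in this comparison and 3.25% lower, against 2 and 0 of the 10. The 2 are this collagen IV pair, which moved together within groups (r = 0.98), so they are 1 observation rather than 2. Col4a2 rose 1.38-fold (0.47 on the log2 scale with SE 0.15, adjusted p = 0.0453). For Col4a1 the log2 fold change was of like size, 0.46 with SE 0.17, and missed the threshold (adjusted p = 0.0783). Col4a2 passed only narrowly: leaving out any 1 of the 12 libraries compared took the call away (adjusted p = 0.0519 to 0.109), the fold change without Isoproterenol 3 being 0.37 on the log2 scale, and it was also lost without the 4 libraries high in Myl7 (log2 fold change 0.48, adjusted p = 0.165), with upper-quartile scaling (0.0537), with no filter on low counts (0.0836) and without mitochondrially encoded genes (0.0535). Col4a1 in turn passed when only the 12 libraries compared were fitted (adjusted p = 0.00350), without Isoproterenol and minocycline 6 (0.0269), on library totals without TMM (0.0175), with limma-voom (0.0194) and with DESeq2 (0.0405).

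In the libraries given both drugs, the collagen IV genes varied widely. Col4a1 lay at 185, 203 and 385 CPM with isoproterenol and minocycline, and Col4a2 at 168, 187 and 327 CPM. These values fell into separate ranges: Isoproterenol and minocycline 4 and 6 held 329 and 385 CPM of Col4a1, while the other 4 libraries held 185 to 217 CPM, close to or within the control range and below all 6 libraries given isoproterenol alone. The coefficient of variation of Col4a1 was 34.6% with isoproterenol and minocycline, 16.7% with isoproterenol and 8.68% in control. Neither gene differed past the threshold from isoproterenol alone (Col4a1 log2 fold change -0.21, approximate 95% interval -0.53 to 0.12, adjusted p = 0.783, and Col4a2 -0.15, interval -0.44 to 0.15, adjusted p = 0.828, edgeR). Nor did either against control (Col4a1 0.25, SE 0.17, adjusted p = 0.308, and Col4a2 0.32, SE 0.15, adjusted p = 0.134). The interval of Col4a1 holds both no difference and a loss as large as the whole difference between isoproterenol and control.

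The library that was high in one collagen IV gene was high in the other. The ratio of Col4a2 to Col4a1 counts stayed between 0.816 and 0.970 in all 18 libraries. It averaged 0.903 ± 0.0506 with isoproterenol and minocycline, 0.855 ± 0.0238 with isoproterenol and 0.848 ± 0.0390 in control (SD, n = 6 each). The 4 other collagen IV chains, Col4a3 to Col4a6, which form the trimers of more specialised basement membranes, were low. Their highest group mean was 6.00 TPM, for Col4a5 with isoproterenol, and 0 of the 4 were called by edgeR in any comparison. At an unadjusted p under 0.05 stood 1 of them (Col4a3, 4.35 ± 0.798 CPM with isoproterenol and 3.19 ± 0.838 CPM in control) for isoproterenol against control and 0 in the comparisons of isoproterenol and minocycline with isoproterenol and with control.

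**Figure D2:**
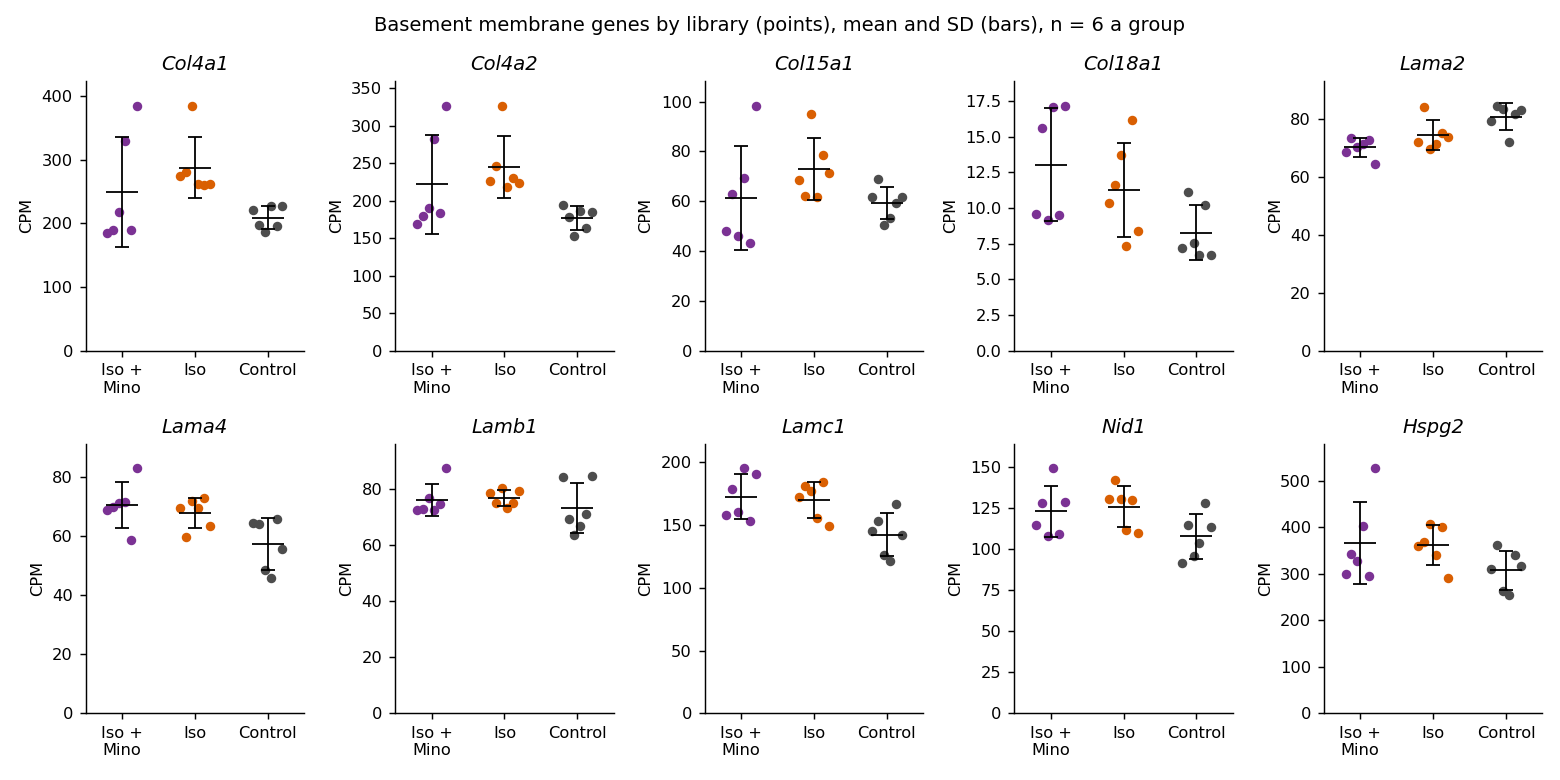
Level of each gene in CPM on a linear axis from 0, with 1 point a library, the group mean and its SD, for isoproterenol and minocycline (Iso + Mino), isoproterenol (Iso) and control. All 6 isoproterenol points of Col4a1 and Col4a2 lie above all control points, and with minocycline 2 libraries, at 329 and 385 CPM of Col4a1, stand apart from the other 4.

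Among the laminin chains, γ1 was called higher in both treated groups, and with both drugs α4 was also called higher and α2 lower. Lamc1 (ENSMUSG00000026478, chromosome 1, 153218922 to 153332786) encodes the γ1 chain that most laminin trimers share. It lay at 154, 169.6 and 195 CPM with isoproterenol and minocycline, at 149, 175 and 184 CPM with isoproterenol and at 121, 144 and 167 CPM in control. The treated groups covered nearly the same range, and 4 of 6 isoproterenol libraries exceeded every control. Lamc1 rose 1.19-fold with isoproterenol against control (0.25 on the log2 scale with SE 0.082, adjusted p = 0.0445, edgeR) and 1.21-fold with both drugs against control (0.28, SE 0.082, adjusted p = 0.0206). These comparisons use the same control libraries. The isoproterenol call was lost on leaving out 9 single libraries in turn (Isoproterenol 1, 2, 3 or 5, Isoproterenol and minocycline 2, or Control 1, 3, 4 or 6, adjusted p up to 0.116), with upper-quartile scaling (0.0519), without mitochondrially encoded genes (0.0510) and when the libraries high in Myl7 were left out (0.0899). The call for both drugs was lost without Isoproterenol and minocycline 4 or 6 or Control 3 or 4 (adjusted p up to 0.0606).

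Lama4 (ENSMUSG00000019846, chromosome 10, 38965515 to 39110188), an α chain of vascular laminins beside Lama5, lay at 58.9, 70.6 and 83.1 CPM with isoproterenol and minocycline, at 59.9, 69.6 and 73.1 CPM with isoproterenol and at 46.0, 60.04 and 65.8 CPM in control. With both drugs 5 of 6 libraries exceeded every control, and with isoproterenol 4 of 6 did. Lama4 rose 1.23-fold with both drugs against control (0.30 on the log2 scale with SE 0.091, adjusted p = 0.0267, edgeR), and had a log2 fold change of 0.24 with isoproterenol against control, short of the threshold (SE 0.091, adjusted p = 0.0852). The isoproterenol value passed with a covariate for atrial markers (adjusted p = 0.0482) and on library totals without TMM (0.00961). The call for both drugs was lost without Isoproterenol and minocycline 6 or Control 3, 4 or 6 (adjusted p up to 0.0732), in a fit of the 12 libraries compared (0.0546) and without the libraries high in Myl7 (0.0580). Both drugs against isoproterenol gave a log2 fold change of 0.055 for Lama4 (adjusted p = 0.897, edgeR), so no difference between the treated groups was shown.

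Lama2 (ENSMUSG00000019899, chromosome 10, 26980036 to 27619758), the α chain of muscle fibre laminin, went the other way. It lay at 64.3, 70.9 and 73.4 CPM with isoproterenol and minocycline, at 69.7, 72.8 and 84.1 CPM with isoproterenol and at 72.1, 82.4 and 84.6 CPM in control. All 6 libraries with both drugs were below the control mean, and 4 of them were below every control library. The gene fell 1.15-fold with both drugs against control (-0.20 on the log2 scale with SE 0.056, adjusted p = 0.0145, edgeR), the only one of the 10 called lower in any comparison. With isoproterenol against control its log2 fold change was -0.12 (SE 0.056, adjusted p = 0.170). The call held on leaving out each library in turn (adjusted p = 0.00801 to 0.0369) and was lost without the 4 libraries high in Myl7 (log2 fold change -0.19, adjusted p = 0.0877). It also depends on the scaling. With plain library totals in place of TMM the value for Lama2 was -0.10 with both drugs (adjusted p = 0.277) and 0.026 with isoproterenol (adjusted p = 0.814), a scaling that moved the median of all genes by 0.11 and 0.14 on the log2 scale and called 2330 genes higher and 545 lower with both drugs against control (1355 and 1202 with TMM), and 2689 and 243 with isoproterenol (922 and 747 with TMM).

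The ratio of Lama4 to Lama2 counts within each library needs no scaling between libraries. It averaged 1.01 ± 0.157 with isoproterenol and minocycline, 0.920 ± 0.116 with isoproterenol and 0.711 ± 0.0951 in control (SD, n = 6 each). The values ran from 0.808 to 1.29 with both drugs, from 0.713 to 1.03 with isoproterenol and from 0.581 to 0.812 in control, and each treated group had 1 library inside the control range. The ratio was 1.29-fold higher with isoproterenol than in control (log2 difference 0.37, exact 2-sided permutation p = 0.0130 over 924 regroupings, adjusted p = 0.0195 over 3 comparisons). With both drugs it was 1.42-fold higher than in control (0.51, exact permutation p = 0.00433, adjusted p = 0.0130). Isoproterenol and minocycline against isoproterenol gave a log2 difference of 0.13 (exact permutation p = 0.312). Leaving out single libraries kept both calls against control (adjusted p = 0.00649 to 0.0390 with isoproterenol and 0.00649 to 0.0195 with both drugs). Without the 4 libraries high in Myl7 the differences were 0.38 and 0.55, with an adjusted p of 0.0714 for each by the exact permutation test.

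**Figure D3:**
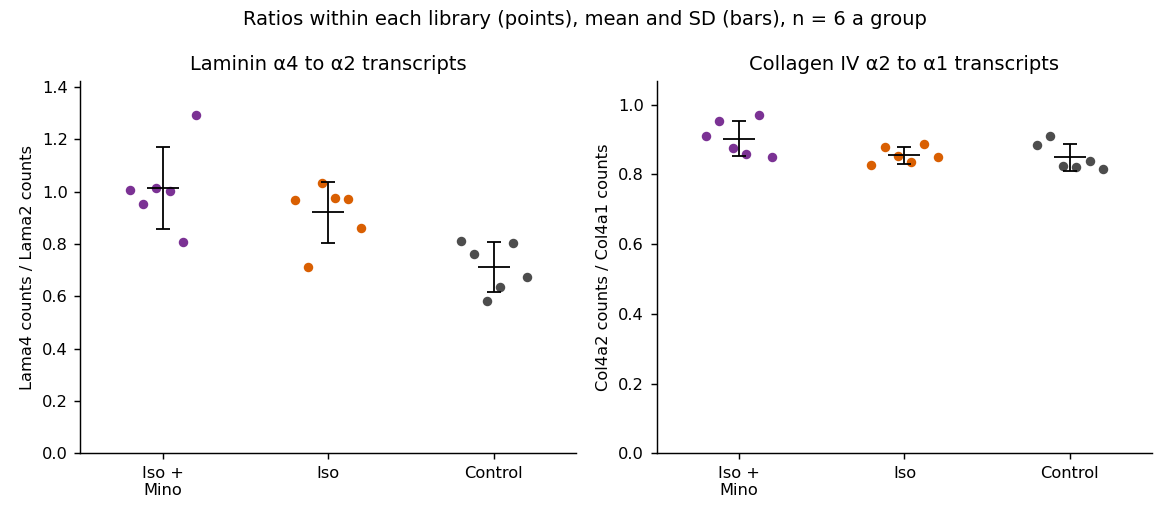
Ratio of Lama4 to Lama2 counts (left) and of Col4a2 to Col4a1 counts (right) in each library, on linear axes from 0, with the mean and SD of isoproterenol and minocycline (Iso + Mino), isoproterenol (Iso) and control, 6 libraries each. The laminin ratio averages 1.01, 0.920 and 0.711 in that order, while all collagen IV ratios lie between 0.816 and 0.970.

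Lamb1 (ENSMUSG00000002900, chromosome 12, 31265234 to 31329644), a β chain, was close to level across groups, at 76.0 ± 5.78 CPM with isoproterenol and minocycline, 76.9 ± 2.90 CPM with isoproterenol and 73.2 ± 8.99 CPM in control (SD, n = 6 each). Its log2 fold change against control was 0.055 with both drugs (SE 0.070, adjusted p = 0.622) and 0.070 with isoproterenol (SE 0.070, adjusted p = 0.555). The more abundant β chain of this tissue was Lamb2, at 65.2, 64.8 and 62.3 TPM with isoproterenol and minocycline, isoproterenol and control, more than Lamb1 in each group (12.0, 12.7 and 10.6 TPM). Lama5, a vascular α chain, averaged 19.1, 19.6 and 17.2 TPM, above both Lama4 and Lama2. These TPM values compare genes and not groups. In CPM, in the same order of groups, Lamb2 was at 254 ± 9.91, 241 ± 7.70 and 263 ± 12.9, highest in control. Lama5 was close to level, at 139 ± 21.0, 137 ± 16.4 and 136 ± 24.4 CPM. Of the 7 other laminin chains 6 could be tested, and 0 of them were called by edgeR in any comparison. At an unadjusted p under 0.05 stood 1 of them with isoproterenol against control (Lamb2, log2 fold change -0.13, adjusted p = 0.0765), and 0 in the other comparisons.

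The linker proteins were higher on average in both treated groups and did not pass the threshold. Nid1 (ENSMUSG00000005397, chromosome 13, 13437602 to 13512275), the nidogen that bridges laminin γ1 and collagen IV, averaged 123 ± 15.7 CPM with isoproterenol and minocycline, 126 ± 12.5 CPM with isoproterenol and 108 ± 13.6 CPM in control (SD, n = 6 each). All 6 libraries of each treated group lay above the control mean, with log2 fold changes against control of 0.19 with both drugs (SE 0.091, adjusted p = 0.148) and 0.22 with isoproterenol (SE 0.091, adjusted p = 0.111). With a covariate for atrial markers the isoproterenol value of Nid1 passed (adjusted p = 0.0178), and on library totals without TMM so did those of isoproterenol (0.0138) and of both drugs (0.0448). Hspg2 (ENSMUSG00000028763, chromosome 4, 137468769 to 137570630), with 118306 counts in all the most deeply counted of the 10, averaged 366 ± 88.0 CPM with isoproterenol and minocycline, 361 ± 42.8 CPM with isoproterenol and 308 ± 42.2 CPM in control. Isoproterenol and minocycline 6 was high, at 527 CPM against 295 to 404 CPM in the other 5. The log2 fold changes of Hspg2 against control were 0.25 with both drugs (SE 0.13, adjusted p = 0.183) and 0.23 with isoproterenol (SE 0.13, adjusted p = 0.257).

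Collagens XV and XVIII, related proteins that carry heparan or chondroitin sulfate chains and release antiangiogenic fragments, were 1 called and 1 not called, and whether their changes differ was not tested. Col18a1 (ENSMUSG00000001435, chromosome 10, 77052178 to 77166548) lay at 9.20, 12.6 and 17.2 CPM with isoproterenol and minocycline, at 7.33, 10.99 and 16.2 CPM with isoproterenol and at 6.70, 7.38 and 11.1 CPM in control. With both drugs 3 of 6 libraries exceeded every control and the other 3 lay within the control range. It rose 1.58-fold with both drugs against control (0.66 on the log2 scale with SE 0.22, adjusted p = 0.0399, edgeR), and with isoproterenol its log2 fold change was 0.44 (SE 0.22, adjusted p = 0.198). It was the least counted of the 10 genes, with 3746 counts in all, and Slc19a1 on the other strand overlaps it by 8825 bases and held 630 counts, so reads of the pair cannot be told apart there if strand was not used. The call was lost without Isoproterenol and minocycline 2, 4 or 6 or Control 1, 3, 4 or 6 (adjusted p up to 0.0993), with no filter on low counts (0.0725), with limma-voom (0.0783) and without the libraries high in Myl7 (0.121).

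Col15a1 (ENSMUSG00000028339, chromosome 4, 47208161 to 47313167) lay at 43.4, 55.4 and 98.4 CPM with isoproterenol and minocycline, at 61.5, 70.1 and 95.1 CPM with isoproterenol and at 50.7, 60.6 and 68.8 CPM in control. With both drugs its 6 libraries reached both below the lowest and above the highest control library. Neither treated group differed from control past the threshold (log2 fold change 0.051, SE 0.17, adjusted p = 0.861 with both drugs and 0.30, SE 0.17, adjusted p = 0.263 with isoproterenol, edgeR).

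With isoproterenol and minocycline against control, 3 of the 10 genes rose (Col18a1, Lama4 and Lamc1) and 1 fell (Lama2). Over all genes 10.2% were called higher and 9.05% lower. For none of the 10 did the groups fail to overlap, against 3.55% of all genes higher and 3.59% lower without overlap. At an unadjusted p under 0.05 stood 6 of the 10, against 33.5% of all genes. A positive log2 fold change was found for 9 of 10, against 50.7% of all genes, with a median of 0.25 against 0.0035 over all genes. Without the 4 libraries high in Myl7, 1 of the 10 was called with both drugs against control, Lamc1, and 0 with isoproterenol against control. Calls over all genes fell as well. With both drugs they went from 1355 higher and 1202 lower to 756 and 613. With isoproterenol they went from 922 and 747 to 372 and 309.

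Adding minocycline to isoproterenol changed 0 of the 10 genes past the threshold. edgeR, DESeq2 and limma-voom each called 0, and 0 of the 10 stood at an unadjusted p under 0.05, against 7.60% of all genes. Over all genes 0.0527% were called in either direction and 0.346% did not overlap between these groups, against 0 of the 10 for each. The log2 fold changes had a median of -0.024, and 4 of 10 were positive, against 49.3% of all genes. The intervals leave room for changes of differing size: that of Lamb1 was narrow, at -0.015 (approximate 95% interval -0.15 to 0.12), as was that of Lama2, at -0.084 (-0.19 to 0.025). Col15a1 had -0.25 (-0.58 to 0.081) and Col18a1 0.22 (-0.20 to 0.63), so a sizeable fall of Col15a1 and a sizeable rise of Col18a1 lie within the error.

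**Figure D4:**
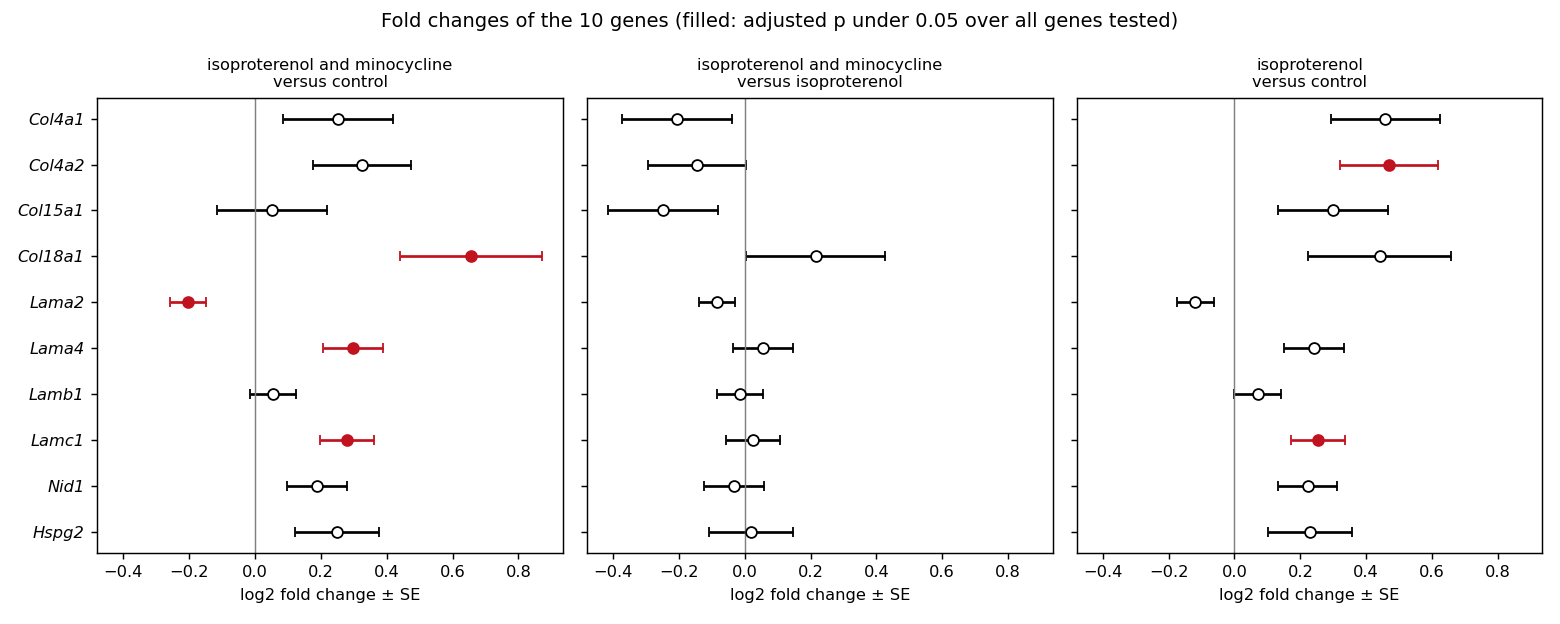
Log2 fold change of each gene with its SE as a bar, for isoproterenol and minocycline against control (left), isoproterenol and minocycline against isoproterenol (middle) and isoproterenol against control (right). Filled points are called at an adjusted p under 0.05 in edgeR over all genes: 4 genes on the left (Lama2 at -0.20 the only one below 0), 0 in the middle and 2 on the right.

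Within groups, several partners moved from library to library together. Deviations of log2-CPM from the group mean were correlated over the 18 libraries for 7 partner pairs, with permutation within groups and Benjamini-Hochberg adjustment over the 7. Col4a1 and Col4a2 gave Pearson's r = 0.98 (permutation p = 1e-05, the smallest that 100000 permutations can give, adjusted p = 7e-05) and Spearman's rho = 0.96 (permutation p = 3e-05, adjusted p = 2.1e-04), with r = 0.96 without the 2 libraries farthest from the median. Within isoproterenol and minocycline, isoproterenol and control r was 0.99, 0.98 and 0.87.

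Over the 18 libraries the laminin γ1 chain moved with nidogen-1, its binding partner, and with laminin α4, and no such relation passed the test with α2 or β1. Nid1 with Lamc1 gave r = 0.81 (permutation p = 3.1e-04, adjusted p = 0.00108) and rho = 0.73 (permutation p = 0.00188, adjusted p = 0.00339), and r = 0.89 without the 2 farthest libraries. Within isoproterenol and minocycline, isoproterenol and control that r was 0.93, 0.93 and 0.65. Lama4 with Lamc1 gave r = 0.73 (permutation p = 0.00213, adjusted p = 0.00373) and rho = 0.73 (permutation p = 0.00194, adjusted p = 0.00339), and r = 0.61 without the 2 farthest. Its r was 0.71 within isoproterenol and minocycline, 0.22 within isoproterenol and 0.94 within control, so the relation was weak in the isoproterenol libraries. Lama2 with Lamc1 gave r = 0.24 (permutation p = 0.369, adjusted p = 0.369) and rho = 0.21 (permutation p = 0.429, adjusted p = 0.500). Without the 2 farthest libraries that r was -0.071, and within the groups it was -0.31 with isoproterenol and minocycline, 0.36 with isoproterenol and 0.54 in control. Lamb1 with Lamc1 gave r = 0.29 (permutation p = 0.334, adjusted p = 0.369) and rho = 0.19 (permutation p = 0.510, adjusted p = 0.510), and r = 0.34 without the 2 farthest, with 0.33, -0.044 and 0.36 within the same groups. Outside the chosen pairs Lamc1 had r = 0.86 with Hspg2 and 0.84 with Col18a1, so high values were not particular to its chosen partners. Whether the correlations with Lamc1 differ from each other was not tested.

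Perlecan and the multiplexin collagens gave 2 further pairs. Hspg2 with Nid1 gave r = 0.63 (permutation p = 0.00971, adjusted p = 0.0136) and rho = 0.70 (permutation p = 0.00340, adjusted p = 0.00476), and r = 0.69 without the 2 farthest libraries, with 0.63, 0.74 and 0.61 within isoproterenol and minocycline, isoproterenol and control. Col15a1 with Col18a1 gave r = 0.74 (permutation p = 0.00189, adjusted p = 0.00373) and rho = 0.82 (permutation p = 8.3e-04, adjusted p = 0.00290), and r = 0.73 without the 2 farthest, with 0.90, 0.64 and 0.54 within those groups. Without the 4 libraries high in Myl7, Lama4 with Lamc1 (r = 0.68) and Hspg2 with Nid1 (r = 0.63) no longer passed, with an adjusted permutation p of 0.0514 for each. Over all 45 pairs of the 10 genes r ran from -0.45 to 0.98 with a median of 0.49, and 38 were above 0. Hspg2 had a higher r with Lamc1 (0.86) and Col15a1 (0.85) than with Nid1. Col15a1 had a higher r with Hspg2 (0.85) and Col4a2 (0.82) than with Col18a1. These libraries share depth, scaling and the cell composition of the tissue, so the values describe how genes moved together and no more. Lama2 stood apart, with a mean r of -0.11 against the other 9 genes and its lowest value, -0.45, with Col4a1.

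**Figure D5:**
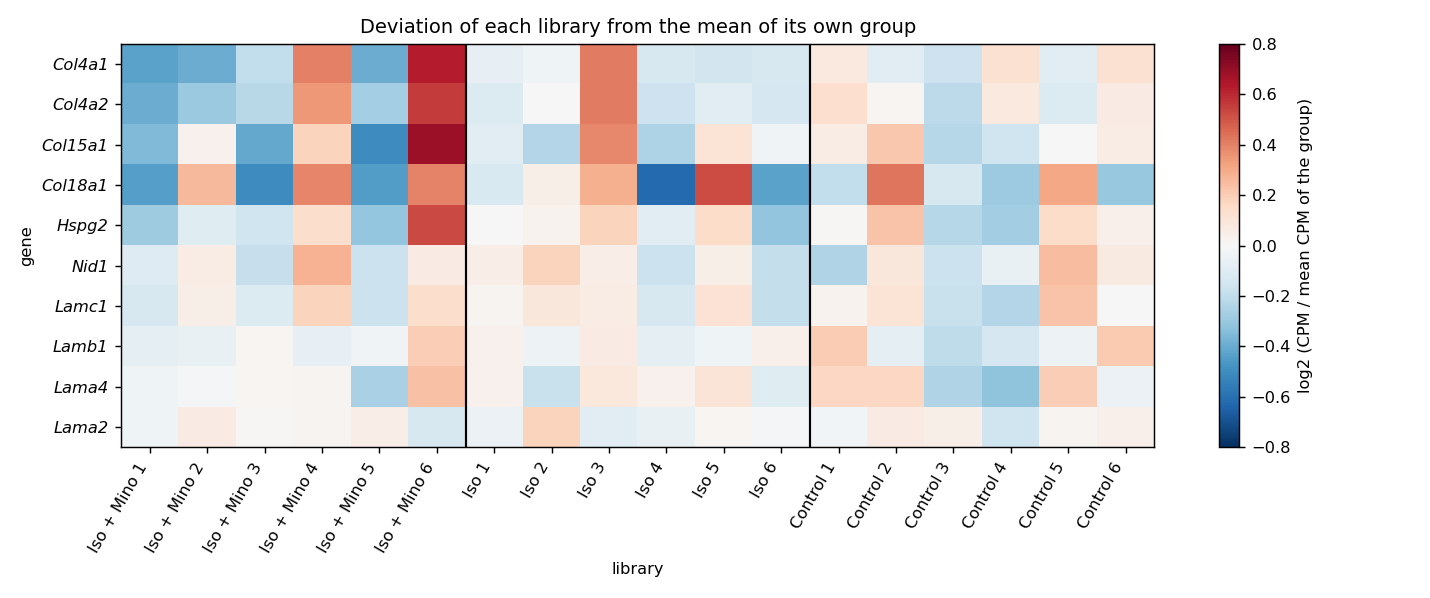
Log2 of each library's CPM over the mean CPM of its own group, for the 10 genes (lines) and 18 libraries (columns, isoproterenol and minocycline first, then isoproterenol and control). Red marks libraries above their group mean. Isoproterenol and minocycline 6 was the highest library of its group for 7 of the 10 genes and Isoproterenol 3 for 5.

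High values of several genes came from the same libraries. Isoproterenol and minocycline 6 was the highest of its group for 7 of the 10 genes and among the top 2 for 9, and Isoproterenol and minocycline 4 was among the top 2 for 8. In the isoproterenol group Isoproterenol 3 was highest for 5 genes, and in control Control 2 was highest for 4. Isoproterenol and minocycline 4 also held the highest summed CPM of its group in the endothelial, pericyte, fibroblast and macrophage marker lists.

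By the same within-group deviations over 18 libraries, the genes most like a member were ranked among 9299 genes of at least 5 CPM. The 5 nearest to Col4a1 were Col4a2 (r = 0.98), Ppp1r12c (0.90), Tie1 (0.89), an endothelial receptor, Fbn1 (0.87), the microfibril protein fibrillin-1, and Cdh5 (0.87), the endothelial cadherin. For Col15a1 they were the collagen VI chains Col6a2 (0.94) and Col6a1 (0.93), the crosslinking enzymes Loxl1 (0.90) and Loxl2 (0.90) and Tgfb1 (0.88), a growth factor. For Lama2 they were Akap13 (0.81), Ankrd12 (0.79), Mon1a (0.79), Stk11ip (0.78) and Mknk1 (0.77), none of which is a matrix gene. They were picked as the highest of many, and no test was made of them.

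The other basement membrane glycoproteins and proteoglycans were mostly higher where called. Of 25 tested, 12 rose and 1 fell with both drugs against control, with a median log2 fold change of 0.35, and over all genes 10.2% rose and 9.05% fell. With isoproterenol against control 7 rose and 1 fell, with a median of 0.27, and over all genes 6.94% rose and 5.62% fell. These shares are also those to set beside the lists that follow. Sparc, a collagen-binding matricellular protein that collagen IV deposition requires in Drosophila, rose with isoproterenol to 407 ± 56.9 CPM, against 239.9 ± 26.8 CPM in control (log2 fold change 0.76, adjusted p = 0.00133, edgeR), with no overlap. Fbln2, a fibulin of basement membranes and elastic fibres, rose by 0.67 on the log2 scale with both drugs (adjusted p = 0.00147) and by 0.57 with isoproterenol (adjusted p = 0.00719). Ntn4, a netrin that binds laminin γ chains, rose by 0.58 with both drugs (adjusted p = 0.00251) and by 0.54 with isoproterenol (adjusted p = 0.00657). Frem2, a protein of embryonic epithelial basement membranes, fell to 2.59 ± 0.367 CPM with both drugs and 2.57 ± 0.699 CPM with isoproterenol, against 5.26 ± 1.26 CPM in control (log2 fold changes -1.01, adjusted p = 4.05e-04, and -1.02, adjusted p = 6.12e-04). Without the 4 libraries high in Myl7 the isoproterenol calls of Fbln2 (adjusted p = 0.0786) and Ntn4 (0.0843) were lost. Nid2 and Agrn, the other nidogen and the proteoglycan agrin, were not called in any comparison.

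The list of receptors for laminin and collagen also held syndecans, glypicans and Itga9, and Gpc4, a glypican, and Itga9 were among its isoproterenol calls. Of its 18 genes tested, 4 rose and 2 fell with both drugs against control, and 2 rose and 2 fell with isoproterenol against control. Except for the 4 that rose with both drugs, these counts are near what the shares over all genes give for a list of this size, so only single receptors are described. Itga7, the integrin α7 chain of the muscle laminin receptor, fell to 87.0 ± 6.42 CPM with both drugs and 89.0 ± 2.34 CPM with isoproterenol, against 108.7 ± 7.91 CPM in control (log2 fold changes -0.32, adjusted p = 6.00e-04, and -0.29, adjusted p = 0.00229, edgeR). Its values did not overlap with control in either treated group. Itga9, an integrin chain known for binding tenascin-C, fell by 0.45 on the log2 scale with both drugs (adjusted p = 7.90e-05) and by 0.46 with isoproterenol (adjusted p = 8.72e-05). Ddr1, a collagen-binding receptor kinase, rose to 17.1 ± 1.59 CPM with both drugs and 17.5 ± 1.99 CPM with isoproterenol, against 11.9 ± 1.65 CPM in control (adjusted p = 5.98e-04 and 5.42e-04). Bcam, a surface receptor for laminin α5, rose with both drugs (log2 fold change 0.21, adjusted p = 0.0149), a call lost without the libraries high in Myl7 (0.0603). On library totals without TMM the isoproterenol call of Itga7 was lost (-0.14, adjusted p = 0.120).

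In the dystroglycan and dystrophin complex, which ties laminin α2 to the cytoskeleton of the muscle fibre, every called gene fell. Of 16 tested, 6 fell with both drugs against control and 3 with isoproterenol against control. Dtna, the dystrobrevin that binds dystrophin, fell to 30.8 ± 3.92 CPM with both drugs and 29.0 ± 2.02 CPM with isoproterenol, against 43.7 ± 4.08 CPM in control (log2 fold changes -0.50, adjusted p = 2.00e-04, and -0.59, adjusted p = 5.87e-05, edgeR). Sgca, α-sarcoglycan, fell by 0.33 on the log2 scale with both drugs (adjusted p = 4.47e-04) and by 0.31 with isoproterenol (adjusted p = 0.00126), the isoproterenol call being lost on library totals without TMM (-0.16, adjusted p = 0.0890). Dmd, dystrophin itself, fell to 44.3 ± 10.03 CPM with both drugs, against 66.8 ± 9.71 CPM in control (adjusted p = 0.00469), and Pomgnt1, which glycosylates dystroglycan, fell by 0.31 on the log2 scale (adjusted p = 6.26e-04). Dag1, dystroglycan, was at 243 ± 53.3 CPM with both drugs, 261 ± 22.7 CPM with isoproterenol and 263 ± 24.0 CPM in control and was not called.

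Enzymes that modify, crosslink or cut basement membrane collagen were mostly higher where called. Of 22 genes listed for collagen IV biosynthesis and crosslinking, 7 rose and 1 fell with both drugs against control, and 6 rose and 1 fell with isoproterenol against control. Several of them, Lox among them, are not particular to collagen IV. Ctsb, a protease called higher with isoproterenol (log2 fold change 0.20, adjusted p = 0.00631, edgeR), is counted both here and among the proteases below. Loxl2, a lysyl oxidase that crosslinks collagen IV, rose to 23.2 ± 2.09 CPM with isoproterenol, against 14.2 ± 1.66 CPM in control (log2 fold change 0.72, adjusted p = 0.0158, edgeR), and was not called without the libraries high in Myl7 (0.132). Plod3, a collagen lysyl hydroxylase and glycosyltransferase, rose to 33.7 ± 3.35 CPM with both drugs, against 25.1 ± 2.39 CPM in control (adjusted p = 4.87e-04). Of 21 proteases and inhibitors, 10 rose and 0 fell with both drugs against control (16 at an unadjusted p under 0.05), and 9 rose and 1 fell with isoproterenol against control. Timp1, an inhibitor of matrix metalloproteinases, rose to 11.3 ± 4.30 CPM with both drugs and 8.06 ± 2.18 CPM with isoproterenol, against 2.47 ± 1.17 CPM in control (log2 fold changes 2.18, adjusted p = 7.80e-05, and 1.70, adjusted p = 0.00128). Mmp14, a membrane-bound metalloproteinase, rose with isoproterenol (log2 fold change 0.60, adjusted p = 0.00413). In none of these lists was a gene called by edgeR between isoproterenol and minocycline and isoproterenol. At an unadjusted p under 0.05 stood 1 gene of the other glycoproteins and proteoglycans, 2 of the receptor list, 1 gene of the dystrophin complex, 1 of the collagen IV biosynthesis list and 5 of the proteases and inhibitors.

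Markers of fibroblasts, pericytes and smooth muscle, macrophages and cardiomyocytes moved with the groups, and the part of these and of the endothelial markers in the results above was not tested. Of 14 fibroblast markers, 13 rose with both drugs against control and 8 with isoproterenol against control, with a summed level of 2346 to 3936, 2425 to 3330 and 1735 to 2384 CPM in isoproterenol and minocycline, isoproterenol and control. Of 12 pericyte and smooth muscle markers, 5 and 4 rose in the same comparisons, with sums of 1034 to 1314, 1028 to 1210 and 886 to 1044 CPM. Of 15 endothelial markers, 3 (Pecam1, Vwf and Ly6c1) rose with both drugs and 0 with isoproterenol by edgeR (1 at an unadjusted p under 0.05), with sums of 1444 to 2087, 1450 to 1684 and 1321 to 1546 CPM that overlapped between all groups. Of the endothelial calls, Pecam1 held under every alternative. Vwf was lost when the 4 libraries high in Myl7 were left out (adjusted p = 0.0511) and without Isoproterenol and minocycline 2 or 6 or Control 3 or 4 (up to 0.0570), and Ly6c1 was lost without the libraries high in Myl7 (0.0806), on leaving out any of 12 single libraries (up to 0.129) and under 5 other alternatives. Of 11 macrophage markers, 7 and 8 rose, with sums of 200.1 to 285, 204 to 275 and 146 to 184 CPM. Of 10 ventricular cardiomyocyte markers, led by Myh6, 4 and 3 fell, and their sum was lower in every treated library, at 63055 to 74925 CPM with both drugs and 64245 to 69736 CPM with isoproterenol, against 75664 to 83196 CPM in control. No marker of these lists was at 0 in a whole group. Of 4 atrial markers none was called, with sums of 99.1 to 819, 74.0 to 386 and 128 to 555 CPM, and the marker lists of lymphatic endothelium, Schwann cells, adipocytes and mesothelium held 2, 1, 0 and 0 called genes with both drugs and 1, 0, 0 and 0 with isoproterenol, all higher.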

How the data were processed

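Libraries of polyadenylated RNA from left ventricles were sequenced as paired reads of 150 bases and trimmed in CLC Genomics Workbench 21.0.3 with a quality limit of 0.05 and at most 2 ambiguous bases, per the labels' protocols. Per the submitters' processing notes edgeR was used, for a step that is not stated. For the counting, no build, annotation or strandedness is given in the sources used here. The table deposited by the authors holds raw counts per gene and library and, beside them, TPM values, per the file headers. Columns were matched to libraries by the number in the description field, and 0 per-sample columns matched no library. The title of a library can carry another number than its description. Libraries of a group differed beyond counting noise, with a chi-square per degree of freedom of 5.30 to 33.3 for each pair.

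The counts as deposited went into edgeR 4.0.16 (R 4.3.3): filterByExpr (13281 genes kept, 99.93 to 99.95% of counts), TMM scaling, glmQLFit with robust estimation and glmQLFTest in 1 fit of all 18 libraries, with 2-sided p-values adjusted by Benjamini-Hochberg over all genes tested and a threshold of 0.05. The biological coefficient of variation was 13.2%. A standard error is the size of the log2 fold change over the square root of F, and approximate 95% intervals follow from it. CPM values use TMM-scaled library sizes, and log2-CPM values a prior count of 2. The deposited TPM values served only for levels between genes. Intervals and p-values cover the spread between libraries. Scripts were tested on simulated data.

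The alternatives were DESeq2 1.42.0, limma-voom 3.58.1 with quality weights, other scalings and filters, a fit of the 12 libraries compared, counts without mitochondrially encoded genes, a covariate for atrial markers, leaving out the 4 libraries above 80 CPM of Myl7, and leaving out each library in turn. Scaling by library totals without TMM was added after the deposited TPM values had been seen. The 10 genes, the gene lists and the alternatives were chosen with earlier results of these data known. From each list the text could name up to 4 called genes of the smallest p in each comparison with control; genes of the laminin, collagen IV, nidogen and agrin families, Dag1 and genes named where a count was 5 or fewer were chosen after their values were seen.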

Additional observations from a re-analysis of the deposited data

Results flagged for a closer look

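Among 33 combinations of gene or ratio and group checked for a library far from the others, 3 met Dixon's criterion at the 95% level, where chance flags about 1 group in 20. Col4a1 was at 384 CPM in Isoproterenol 3, against 259.6 to 280.0 CPM in the other 5 isoproterenol libraries (gap over range 0.836). Col4a2 was at 327 CPM in the same library, against 219 to 246 CPM in the others (0.749). Since these genes moved together in all groups, they are 1 observation rather than 2. Lamb1 was at 87.3 CPM in Isoproterenol and minocycline 6, against 72.3 to 76.8 CPM in the other 5 libraries of that group (0.701).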

How the results depend on the processing

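Called genes among the 10 numbered 2 for isoproterenol against control. They were 0 with upper-quartile scaling, without mitochondrially encoded genes and without the 4 libraries high in Myl7, 1 with no filter on low counts, 3 with DESeq2, limma-voom or the 12 libraries alone, 4 with the atrial covariate, 5 on library totals without TMM and 0 to 3 on leaving out single libraries (0 without Isoproterenol 1, 2, 3 or 5 or Control 1, 3, 4 or 6, and 1 without Isoproterenol 4 or 6, Control 2 or 5 or Isoproterenol and minocycline 2). For both drugs against control they numbered 4, with 1 without the libraries high in Myl7, 4 without TMM (4 higher and 0 lower) and 1 to 4 on leaving out single libraries (1 without Isoproterenol and minocycline 6 or Control 3 or 4, and 2 without Isoproterenol and minocycline 4 or Control 6). For added minocycline they were 0 throughout. Calls over all genes varied as well. With isoproterenol they were 922 higher and 747 lower in the fit used above, and 890 and 767 with upper-quartile scaling. They were 866 and 787 without mitochondrially encoded genes, 2689 and 243 without TMM and 580 and 499 without Control 4. With both drugs they were 1355 and 1202 in the fit used above and 957 and 832 without Control 4. The Lama4 to Lama2 ratio kept its direction, with log2 differences without the libraries high in Myl7 of 0.38 with isoproterenol and 0.55 with both drugs (adjusted exact permutation p = 0.0714 each), and ranges on leaving out single libraries of 0.32 to 0.44 and 0.43 to 0.57, and of 0.061 to 0.20 for added minocycline. Without the libraries high in Myl7, r was 0.68 for Lama4 with Lamc1 and 0.63 for Hspg2 with Nid1 (adjusted permutation p = 0.0514 each).

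Sign changes touched values near 0. For added minocycline Lamc1 was at -0.027 with the atrial covariate, -0.0011 with limma-voom and -0.019 without TMM, and Hspg2 at -0.035, -0.071 and -0.022. On leaving out single libraries the ranges were -0.013 to 0.056 for Lamc1, -0.11 to 0.073 for Hspg2, -0.096 to 0.0081 for Nid1 and -0.059 to 0.0034 for Lamb1. With both drugs against control Col15a1 was at -0.11 with limma-voom and ran from -0.13 to 0.13 on leaving out single libraries. Lama2 was at 0.026 without TMM for isoproterenol against control. The causes were not tested, and where libraries were left out the fits also had fewer libraries.

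No paired analysis was possible because the labels give each library a number of its own that no other group shares. No batch or date is given. Depth limits Col18a1 most, and values of genes under 1 CPM such as P4ha3 are not discussed.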
